A study of Danio rerio with 6 samples.

Results

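Of 434 annotated miRNA loci counted in the adult zebrafish telencephalon, 222 had at least 1 read, and 64 of these were rare. Rare loci were chosen by their mean level: at least 1 read in some library and a mean over the 6 libraries below 10 RPM, where RPM is the reads at a locus per 1000000 reads at all miRNA loci of that library. A further 156 loci lay at 10 RPM or more, and 2 loci that met the limit were left out by the selection rule. They enter library totals and the test across all loci, but no count of rare loci and no count or sum over a family or tissue list. The level itself is therefore the basis of the choice and is given below as a description.

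The small RNA libraries came from hemispheres of the telencephalon, 3 control and 3 injured. The labels call the control hemispheres healthy and untreated. Injured hemispheres had been stabbed with a syringe needle, and RNA was extracted some days after the lesion according to the study's methods, which state that each hemisphere was processed separately. No strain, transgene or drug is named in the labels, and they do not link hemispheres to fish. For its mRNA libraries the study took the opposite hemisphere of the injured fish as control, and it prepared RNA for the small RNA libraries in the same manner, so control and injured libraries may come from the same fish, but which ones is not given in the sources used here. The labels do not say that replicates are separate fish, so p-values measure the spread between these libraries only.

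miRNAs are short RNAs that are cut from hairpin precursors and bind target mRNAs through a seed near their 5′ end, lowering the output of those mRNAs. Many are made mainly in a single tissue, such as muscle, the pancreas or neurons, and others are made from several gene copies that can share the same mature sequence. A locus with few reads in the telencephalon can thus belong to a miRNA of another tissue or be a copy of a miRNA that is common in the brain. Both kinds were found among the 64 rare loci.

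The libraries held between 2475462 and 4008607 reads at miRNA loci in control and between 11473850 and 14545864 in injured hemispheres. A single read was worth 0.249 to 0.404 RPM in control and 0.0687 to 0.0872 RPM in injured libraries. Depth thus differed with the group, and the effect of depth on detection and the effect of injury cannot be told apart from raw detection alone. The brain identity of the libraries was visible in the miR-9 family, a regulator of neural progenitors, whose 7 loci with a read summed to between 95658 and 109722 RPM.

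Rare loci together contributed very little RNA. They summed to 114, 128 and 113 RPM in controls 1, 2 and 3, and to 126, 139 and 141 RPM in injured 1, 2 and 3. The group means were 118 ± 8.51 and 135 ± 8.19 RPM (SD, n = 3 each), with injured 1 lying below control 2, so the groups overlapped. The share of all reads at miRNA loci was between 0.0113% and 0.0141% per library. The median of the 64 mean levels was 1.12 RPM, 8 loci lay at 5 RPM or more, and 31 lay below 1 RPM. These 64 loci include 7 that have no symbol.

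The members closest to the limit were MIR9-2 (8.36 RPM), mir23a-1 (8.32 RPM) and MIR3074 (8.16 RPM). The loci just above it were mir202 (10.005 RPM), dre-mir-212 (10.9 RPM) and dre-mir-124-4 (11.8 RPM).

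**Figure D1:**
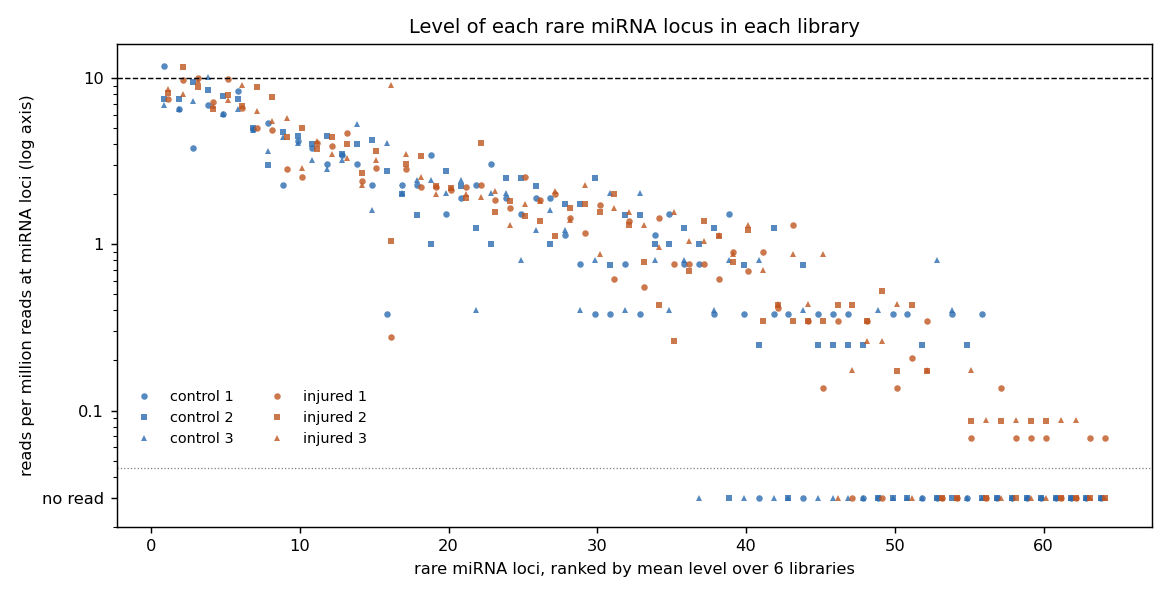
Level in RPM (log axis) of the 64 rare loci in each of the 6 libraries, ranked by mean level, with blue control and orange injured points, the dashed line at 10 RPM and a separate row for libraries with no read. Loci down to a mean of 1 RPM had reads in all 6 libraries, and below 0.1 RPM at most 1 locus had a read in any control library. The latter partly follows from the cut, since a control read adds more RPM to the mean than an injured read.

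Detection followed the level and the depth. The level is a mean over the same 6 libraries, so a library without a read lowers it. The link of detection with level is thus partly built in. All 33 loci with a mean of 1 RPM or more had reads in 6 of 6 libraries. Of the 21 loci between 0.1 and 1 RPM, 4 had reads in all 6 libraries. Of the 10 loci below 0.1 RPM, none had, and the control libraries had reads at 1, 1 and 0 of them, against 7, 4 and 5 in the injured libraries. A control read adds more RPM to the mean than an injured read, so control reads tend to lift a locus out of this lowest group. For example, mir130c-1 and the MIR19A locus ENSDARG00000099103, each with 2 control reads alone, had means of 0.135 and 0.131 RPM. The contrast in the lowest group thus partly follows from how it was cut.

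Over all 64 loci, controls 1, 2 and 3 had reads at 49, 48 and 43, and injured 1, 2 and 3 at 57, 56 and 55. The means were 46.7 ± 3.21 and 56.0 ± 1.00 loci (SD, n = 3 each), and the groups did not overlap. For equal depth, the expected number of loci with a read was calculated for a draw of 2475462 reads from each library, the size of the shallowest. The expected numbers were 48.1, 45.0 and 43.0 in control and 45.5, 46.8 and 47.3 in injured libraries.

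At equal depth the group means were 45.4 ± 2.58 and 46.5 ± 0.919 loci (SD, n = 3 each), and the groups overlapped. The loci had been selected by having a read in some library, 8 of them through injured and 2 through control libraries alone, so these counts use values that the selection used and are a description. The difference between groups went from 9.33 loci as sequenced to 1.16 loci at equal depth. It changed sign, to −0.186, when control 3 was left out.

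**Figure D2:**
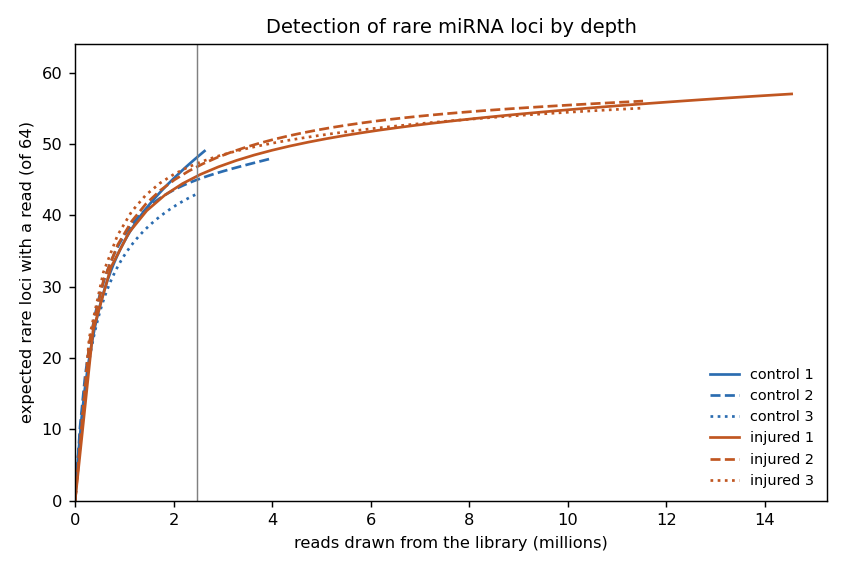
Expected number of the 64 rare loci with a read (y axis) when a given number of reads, in units of 1000000 (x axis), is drawn from each library, with blue control and orange injured curves and a grey line at the size of the shallowest library. At that depth the 6 curves lie between 43.0 and 48.1 loci with both groups mixed, and the injured curves go on to 55 to 57.

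The 27 loci seen in some libraries only had mean levels up to 0.825 RPM. Reads in injured libraries alone were found at 8 loci, each with 1 to 3 reads in all, among them mir133a-1, MIR133A2, mir499a and MIR145. Reads in control libraries alone were found at 2 loci, mir130c-1 and a MIR19A locus (ENSDARG00000099103), each with 2 reads. In a control library, 0 reads allow a level of up to 0.748 to 1.21 RPM by a floor of 3 reads, above the levels of the 8 loci in any injured library. An absence of these 8 loci from controls was therefore not detectable at this depth.

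Some rare loci were relatives of miRNAs with a higher level in these libraries. Of the 57 rare loci with a symbol, 21 had another locus of the same family at 10 RPM or more, and 36 did not. This limit alone does not make a relative common in the brain. Families whose top locus reached 1000 RPM or more held 14 of the 57 (24.6%). A copy number at the end of a symbol marks gene copies that give the same mature sequence by the naming convention of miRNAs. Such a number was present in 32 of the 57 rare symbols (56.1%) and in 54 of 153 symbols of the loci at 10 RPM or more (35.3%). A copy number alone does not mean that another copy was abundant. The miR-9, miR-124 and miR-338 families had a locus at 10 RPM or more. The miR-129, miR-196, miR-23, miR-375 and miR-1 families, which also hold numbered rare loci, had none.

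The miR-9 family held both kinds of locus. Its rare loci were MIR9-2 (8.36 RPM), mir9-5 (3.86 RPM), MIR9-1 (2.13 RPM) and mir9-3 (0.499 RPM), whereas mir9-4 had 81438 RPM and mir9-7 had 18381 RPM as means over the 6 libraries. The rare miR-9 loci made up 0.0149% of the RPM of the family.

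miR-124, the best known neuronal miRNA, was low at each of the 6 loci analysed here. mir124-6 had 7.46 RPM, MIR124-2 had 1.74 RPM and MIR124-1 had 1.43 RPM. The 3 other loci lay just above the limit, between 11.8 and 18.9 RPM, and the 6 loci summed to 55.4 RPM, with a range of 51.0 to 61.6 RPM over the libraries. The study kept only alignments above a mapping quality limit, which removes reads that fit several copies equally well. The part of that step in the low levels of such copies, also in the miR-9 family above, was not tested.

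miR-129, a miRNA of neurons, had no locus above the limit. Its loci were ENSDARG00000082458 (named MIR129-2, 3.69 RPM), ENSDARG00000083082 (also named MIR129-2, 3.27 RPM), mir129-1b (2.98 RPM) and dre-mir-129-1 (2.22 RPM). These 4 loci summed to between 10.8 and 12.7 RPM per library.

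Other families also held rare and abundant loci. mir30a (7.65 RPM) and MIR30E (0.723 RPM) stood beside mir30d with 29058 RPM, all of the widely expressed miR-30 family. The let-7 family, which promotes differentiation, included dre-let-7e (2.11 RPM) and mirlet7d-1 (3.83 RPM) beside MIRLET7I with 23075 RPM. mir130c-2 (1.76 RPM) and mir130c-1 (0.135 RPM) stood beside mir130a-2 with 11213 RPM, mir190b (1.93 RPM) beside MIR190A with 1167 RPM, and mir724b (0.0259 RPM) beside dre-mir-724 with 8502 RPM. In these families the differing letters name related mature sequences, so a shared mature sequence is not implied.

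**Figure D3:**
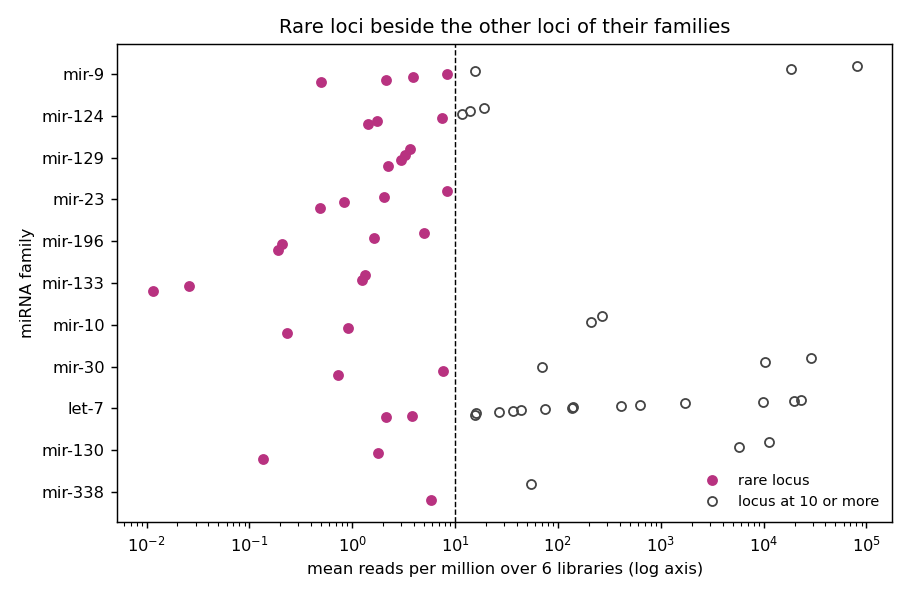
Mean level in RPM over the 6 libraries (log axis) of each locus with a read in 11 families, with filled points for rare loci and open points for loci at 10 RPM or more. Families such as miR-9, let-7 and miR-130 span from below 10 to above 10000 RPM, while all miR-129, miR-23, miR-196 and miR-133 points lie left of the dashed line at 10 RPM.

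The miR-23 loci were all rare, although miR-23 genes lie in clusters with miR-27 and miR-24 genes. mir23a-1 had 8.32 RPM, mir23a-2 had 2.03 RPM, mir23a-3 had 0.825 RPM and dre-mir-23b had 0.484 RPM. Loci were matched by name to RefSeq genes on GRCz12tu, another assembly than that used for the counts, and 35 of the 64 had a match. There, within 10000 bases, mir23a-1 had dre-mir-27e (306 RPM) as a neighbour, mir23a-2 had mir27c (2828 RPM) and mir23a-3 had mir27a (201 RPM). dre-mir-23b had mir24-1, itself rare at 7.49 RPM. Each miR-23 locus thus had a lower counted level than the cluster partner found for it. For the partners above 10 RPM, this order follows from the choice of rare loci. By the naming convention the copy numbers of mir23a-1, mir23a-2 and mir23a-3 mark a shared mature sequence. The part of the mapping quality limit in these gaps was not tested.

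Other rare loci also had abundant neighbours. mir130c-2 (1.76 RPM) neighboured mir454b (8074 RPM) and mir301b (964 RPM), and mir365-1 (0.380 RPM) neighboured mir193b (528 RPM). dre-let-7e (2.11 RPM) neighboured mirlet7a-5 (624 RPM). In contrast, mir1-2 (0.964 RPM) and mir133a-1 (0.0259 RPM), which neighbour each other, were both rare. mir193a-1 (0.813 RPM) lay above its neighbour dre-mir-365-2, which had no read.

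Lists of miRNAs known for a single tissue or cell type were matched by family name, and 33 of the 64 rare loci were on 1 of 17 lists, against 49 of 156 loci at 10 RPM or more. Muscle was the list with most rare loci outside the brain. It had 10 loci in the tables, of which 9 were rare, 1 had no read and 0 reached 10 RPM. In a bulk sample, few cells of a type and little RNA per cell cannot be told apart.

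Of the muscle loci, mir133b and dre-mir-133c belong to miR-133, which is made in skeletal and heart muscle. mir133b had 0.761, 1.75 and 0.404 RPM in controls 1, 2 and 3 and 1.17, 1.73 and 2.27 RPM in injured 1, 2 and 3. MIR206, a miRNA of skeletal muscle, had 0.381, 1.497 and 2.02 RPM in control and 0.550, 0.781 and 1.31 RPM in injured libraries. The groups overlapped at both loci, with mir133b highest in injured 3 and MIR206 highest in control 3.

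MIR208A, which in mammals lies within a cardiac myosin heavy chain gene, averaged 1.31 RPM over the 6 libraries. mir1-2 averaged 0.964 RPM, and MIR1-1, mir133a-1, MIR133A2 and mir499a averaged between 0.0115 and 0.170 RPM. The 9 rare muscle loci summed to 3.43, 7.48 and 6.06 RPM in control and 5.84, 7.03 and 7.15 RPM in injured libraries. The injured libraries all lay within the range of the controls.

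Hox cluster miRNAs, which lie between Hox genes and are known from the trunk and hindbrain, had 6 rare loci. MIR196A2 (ENSDARG00000081346) was the highest at 5.01 RPM, and a second locus of that name (ENSDARG00000106838) had 1.62 RPM. MIR10B had 0.918 RPM, dre-mir-10b-2 had 0.235 RPM, mir196d had 0.206 RPM and MIR196B had 0.188 RPM. The other 2 detected loci of this list, mir10c (269.8 RPM) and mir10d (211 RPM), were far above the limit. The 6 rare loci summed to 7.01 ± 2.50 RPM in control and 9.34 ± 1.08 RPM in injured libraries (SD, n = 3 each), with control 1 at 9.90 RPM inside the injured range of 8.11 to 10.1 RPM.

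Pancreas and endocrine miRNAs had 9 loci in the tables, of which 3 were rare, 4 lay at 10 RPM or more and 2 had no read. dre-mir-375-2 (1.15 RPM) and dre-mir-375-1 (0.819 RPM) belong to miR-375, a miRNA of pancreatic islets and other endocrine cells, and dre-mir-216b, of the exocrine pancreas, had 2 reads in all 6 libraries together. dre-mir-184-1, of a miRNA known from the lens and cornea, had 0.331 RPM, and MIR145, of smooth muscle, had a single read in injured 3. Both miR-375 loci had reads in all 6 libraries. Of the other loci on these lists, 1 of the eye and choroid plexus list and 3 of the smooth muscle and mesenchyme list lay at 10 RPM or more.

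Oligodendrocyte miRNAs had 6 loci, of which 2 were rare, 1 lay at 10 RPM or more and 3 had no read. dre-mir-338-2 (5.82 RPM) and mir219-3 (3.70 RPM) belong to families that drive the maturation of myelinating cells in mice. dre-mir-338-2 had 4.95, 4.99 and 4.85 RPM in control and 5.02, 8.76 and 6.36 RPM in injured libraries. All 3 injured libraries were above the controls, although injured 1 exceeded control 2 by little. The other detected locus of this family, dre-mir-338-3, had 54.6 RPM.

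The lists of gut and kidney epithelium, barrier epithelium, sensory cells, leucocytes, erythrocytes, endothelium and gonad had no rare locus among their detected loci. The ciliated cell list had 2 loci without a read, and no locus with a symbol matched the liver list. Only the 331 of 434 loci with a symbol could be matched to a list. The 55 loci of miR-430, a miRNA of the early embryo, had no read.

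The effect of injury was then tested across all loci with a mean normalized count above 10, with the quasi-likelihood F test of edgeR and p-values adjusted after Benjamini and Hochberg. Of 184 tested loci, 24 (13.0%) were called changed at an adjusted p below 0.05, of which 20 (10.9%) were higher and 4 (2.17%) lower in injured hemispheres. Of the 64 rare loci 26 were tested, and 0 were called. Without the filter, 23 of 222 loci (10.4%) and 0 of the 64 rare loci were called. The lowest adjusted p among the 26 was 0.0802. By unadjusted p, 2 of the 26 (mir23a-1 and the MIR129-2 locus ENSDARG00000083082) were below 0.05, against 41 of 184 (22.3%) of all tested loci. DESeq2 also called 0 of the 26, with a lowest adjusted p of 0.291, against 30 calls (16.3%) over all loci. DESeq2 gave 0 of the 26 an unadjusted p below 0.05, against 49 of all 184 loci (26.6%).

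The median log2 fold change was 0.11 for the 26 rare loci and 0.02 for all 184 tested loci, and 15 of the 26 and 98 of the 184 were positive. With upper-quartile scaling the median over all loci shifted by −0.11, and 14 of the 26 were then positive. The median standard error (SE) of the log2 fold change was 0.25 for the 26 rare loci and 0.12 for the other 158 tested loci. A p that missed the threshold here does not show that a rare locus was unchanged.

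**Figure D4:**
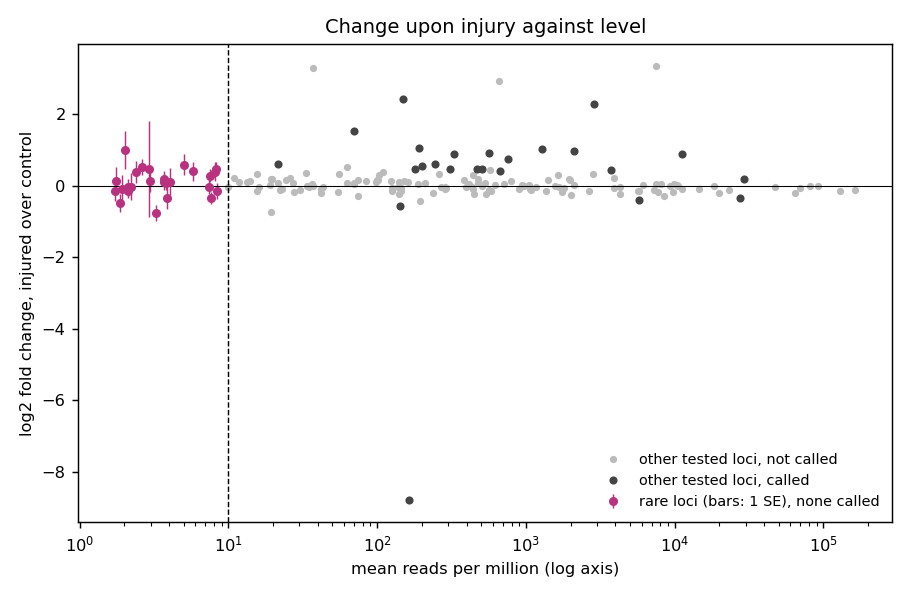
Log2 fold change of injured over control libraries (y axis) against mean level in RPM (log axis), for the tested rare loci with bars of 1 SE and for the other tested loci as dark (called) or grey (not called) points. The rare loci lie left of the dashed line at 10 RPM, between −0.76 and 1.01, with no dark point among them. The other loci plotted number 156, since the 2 loci left out by the selection rule were tested but are not shown.

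The lowest value belonged to a MIR129-2 locus, ENSDARG00000083082. It had 3.05, 3.99 and 5.25 RPM in controls 1, 2 and 3 and 2.41, 2.69 and 2.27 RPM in injured 1, 2 and 3. All 3 injured libraries were below the controls (log2 change −0.76 ± 0.23 SE, adjusted p = 0.0802 by edgeR). The second MIR129-2 locus, ENSDARG00000082458, went from 3.38 ± 0.136 to 3.99 ± 0.681 RPM (SD, n = 3 each) (log2 change 0.20 ± 0.20 SE, adjusted p = 0.736 by edgeR). Reads from loci of near-identical sequence may be removed by the mapping quality limit or placed at a related locus, so values of single miR-129 loci are uncertain.

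mir23a-1 had 6.47, 7.48 and 6.46 RPM in control and 9.76, 11.7 and 8.02 RPM in injured libraries. All 3 injured libraries were above the controls (log2 change 0.48 ± 0.19 SE, adjusted p = 0.173 by edgeR). mir23a-2 had 2.28, 1.25 and 0.404 RPM in control and 2.27, 4.08 and 1.92 RPM in injured libraries, with control 1 above injured 1 and injured 3. Its log2 fold change of 1.01 (± 0.53 SE, adjusted p = 0.344 by edgeR) was the highest of the 26. dre-mir-23b lay below the filter and was not called in the fit without the filter. The controls had 1, 0 and 0 reads there and the injured libraries 19, 4 and 10. As RPM these were 0.381, 0 and 0 in control and 1.31, 0.347 and 0.872 in injured libraries. Control 1, with its single read, thus lay above injured 2, and the groups overlapped. The ratio of the pooled levels of dre-mir-23b was 8.01, with an exact 95% interval of 1.34 to 326 that covers counting error only. Of the 17 rare loci below the filter with 20 or more reads, dre-mir-23b was the single one whose interval did not include 1. The intervals of the other 16 did. Among several 95% intervals some leave out 1 by counting error alone, so the value is a description.

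At the next loci the groups overlapped. mir24-1 went from 6.63 ± 0.957 to 8.35 ± 1.32 RPM (SD, n = 3 each) (log2 change 0.28 ± 0.18 SE, adjusted p = 0.443 by edgeR). MIR3074, whose human namesake lies opposite a miR-24 gene, had 3.81, 9.48 and 7.27 RPM in control and 9.97, 8.85 and 9.59 RPM in injured libraries (log2 change 0.39 ± 0.27 SE, adjusted p = 0.446 by edgeR). Whether the counting used strand is not given in the sources used here, so how reads at a gene with an antisense partner were assigned is not known. Reads that the counting marked as ambiguous, which enter no locus, were 0.0103% to 0.0125% of all reads per library. mir30a had a log2 fold change of −0.35 (± 0.17 SE, adjusted p = 0.323 by edgeR), with control 1 between injured 1 and injured 3.

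Of the neural members, MIR9-2 had 11.8, 7.48 and 6.87 RPM in control and 7.42, 8.07 and 8.54 RPM in injured libraries, and control 1 was the highest. Its log2 fold change was −0.15 (± 0.22 SE, adjusted p = 0.789 by edgeR). mir124-6 had a log2 fold change of −0.03 (± 0.21 SE, adjusted p = 0.939 by edgeR), which became 0.0015 with library totals in place of the trimmed mean of M values. The oligodendrocyte locus dre-mir-338-2 had 0.40 (± 0.26 SE, adjusted p = 0.443 by edgeR), and the Hox locus MIR196A2 (ENSDARG00000081346) had 0.59 (± 0.30 SE, adjusted p = 0.323 by edgeR). The neuron list had 31 loci in the tables, of which 11 were rare, 17 lay at 10 RPM or more and 3 had no read. Its 11 rare loci summed to 38.5 ± 3.05 RPM in control and 36.8 ± 1.55 RPM in injured libraries (SD, n = 3 each).

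The injured and control libraries did not overlap at 5 of the 26 tested rare loci, against 43 of the 184 tested loci (23.4%). All injured libraries were above the controls at 3 loci (mir23a-1, dre-mir-338-2 and mir7146), against 32 of the 184 (17.4%). All were below at 2 loci, the MIR129-2 locus ENSDARG00000083082 and ENSDARG00000082399, which has no symbol, against 11 of the 184 (5.98%). mir7146 went from 2.10 ± 0.160 to 3.11 ± 0.341 RPM (SD, n = 3 each) (log2 change 0.54 ± 0.22 SE, adjusted p = 0.382 by edgeR). Over all 64 rare loci the libraries did not overlap at 6, against 44 of the 222 loci with a read (19.8%).

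Variation between libraries was measured against counting error. For the 32 rare loci with a mean of at least 10 reads per library, the variance of the reads scaled to the shallowest library was divided by their mean within each group and averaged over both groups. Counting alone gives a mean of about 0.527 on this scale. The 32 loci had a median of 0.479, with 15 above and 17 below that value. With few libraries per group the ratio is skewed, so its median under counting alone lies below that mean. The split therefore does not show that the spread was counting error only. A second index was Pearson's dispersion of the raw reads, for which counting alone gives a mean of about 1. It had a median of 1.27 and exceeded 2 at 9 of the 32 loci. The coefficient of variation of the RPM had a median of 29.4% in control and 16.1% in injured libraries, which were deeper.

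mir459 (ENSDARG00000080051) stood apart from the other 31 loci. Its variance over mean was 10.3, against 1.52 for the next locus, MIR3074. It had 1, 11 and 10 reads in controls 1, 2 and 3, and 4, 12 and 104 reads in injured 1, 2 and 3. As RPM these were 0.381, 2.74 and 4.04 in control and 0.275, 1.04 and 9.06 in injured libraries. Injured 3 was the highest and injured 1 the lowest of all 6 libraries, so the spread lay within the groups (log2 change 0.47 ± 1.35 SE, adjusted p = 0.899 by edgeR). Without injured 3, mir459 fell below the filter, and a fit without the filter gave −1.97 ± 0.81 SE (adjusted p = 0.301 by edgeR).

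Injured 3 was also highest in the summed level of 6 of the 10 tissue lists that were summed. The sums took all detected loci for the gut and kidney, barrier epithelium and sensory lists, and rare loci only for the others. Leucocyte, erythrocyte, endothelium and gonad lists were not summed. Among the 6, smooth muscle rested on a single read and the eye and choroid plexus list on 10 reads in injured 3. Pancreas had 2.79 RPM in injured 3 against 2.74 RPM in control 2. The 9 barrier epithelium loci with a read summed to 2156 RPM in injured 3, against 1324 to 1780 RPM in the other 5 libraries. The 3 sensory loci summed to 31827 RPM in injured 3, against 1119 to 11527 RPM in the others. The detected locus of the gut and kidney list, mir194b, had 77.1 RPM in injured 3, against 33.1 to 68.7 RPM. Injured 1, with the lowest mir459, had the second highest sensory sum. The part of these tissues in the level of mir459 was not tested.

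The next largest values of variance over mean were those of MIR3074 (1.52), MIR208A (1.44), mir23a-2 (1.44) and dre-mir-133c (1.32). This order depended on the index. By the Pearson index the loci after mir459 were mir1788 (3.98), mir23a-2 (3.77), dre-mir-133c (3.48) and dre-mir-338-2 (3.45), while MIR3074 had 1.98. MIR208A had 1, 10 and 2 reads in control and 25, 18 and 10 in injured libraries. dre-mir-133c, another muscle locus, had 1, 3 and 5 reads in control and 9, 23 and 19 in injured libraries. Control 2 was the highest of all libraries in RPM for MIR208A (2.49) and control 3 for dre-mir-133c (2.02, against 1.99 in injured 2). These values rest on 10 and 5 reads, so whether the muscle loci shared a high library cannot be judged from them. At the other end, dre-let-7e (0.0529), mir7146 (0.0612) and mirlet7d-1 (0.0699) had the lowest ratios.

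**Figure D5:**
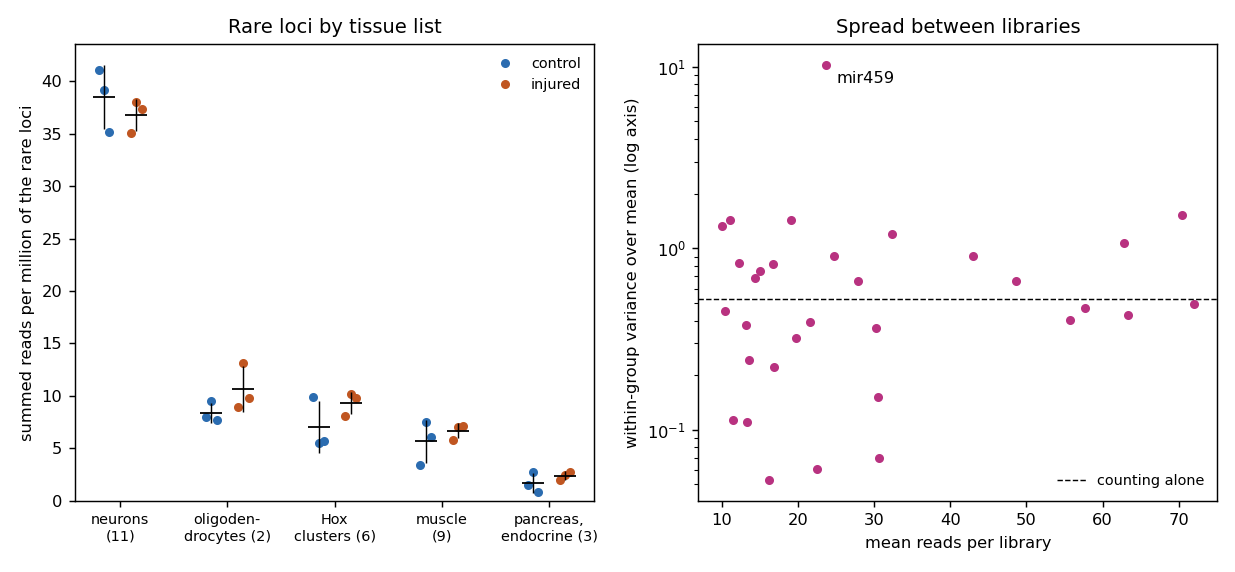
Left, summed RPM of the rare loci on 5 tissue lists in each library (points), with the group mean and SD in black and the number of loci in brackets. Right, within-group variance over mean (log axis) against mean reads per library for 32 rare loci, where mir459 at 10.3 lies above all others. The dashed line marks the 0.527 that counting alone gives as a mean.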

How the data were processed

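Per the study's methods, small RNA libraries were sequenced on an Illumina instrument, adaptors were trimmed with Cutadapt, inserts of mature miRNA length were mapped to GRCz11 with STAR and a mapping quality limit, and reads at annotated miRNA loci were counted with HTSeq in union mode. The submitters' processing notes list BWA in place of STAR, and the labels name a total RNA kit with gel size selection where the methods name a small RNA kit. No source used here gives tool versions. The authors deposited raw counts per locus, 1 table per library. The 5 HTSeq summary lines were left out of library totals (reads outside loci were 11.4% to 12.3% of all).

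Symbols came from an identifier table that named 331 of 434 loci. Deviations from the group means correlated by 0.35, 0.094 and 0.095 between control and injured libraries of the same replicate number. Between libraries of different numbers the correlations lay from −0.247 to 0.080. Whether libraries of the same number share a fish is not settled, and the main fit did not pair them. Counts were analyzed with edgeR 4.0.16 (trimmed mean of M values, group as the only term, filter of a mean DESeq2-normalized count above 10), with DESeq2 1.42.0, limma 3.58.1 and R 4.3.3 for alternatives. The fit was checked on simulated data with changes larger than any seen at the rare loci, placed at loci drawn from all tested loci. That check does not measure how well changes at rare loci are found. Expected detection at equal depth is the exact hypergeometric expectation. Intervals and floors cover counting error only. Named loci are the called members, the 8 with the highest level, the 5 with the highest variance over mean, those nearest the limit, any with 20 or more reads all in 1 group (none was found), list members and their families; loci named for family gaps, neighbours, lack of overlap or lowest spread were chosen after their values were seen. The members, lists and rules were chosen with earlier results of these data known. No mature sequences were used here.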

Additional observations from a re-analysis of the deposited data

How the results depend on the processing

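The number of rare loci called changed was 0 with all alternatives that tested any: DESeq2, limma-voom, robust empirical Bayes, other scalings, no filter, Bonferroni adjustment, the replicate block and each library left out, with a lowest adjusted p of 0.064. A filter of a mean normalized count above 100 left no rare locus to test. Over all tested loci, Bonferroni adjustment gave 6 calls in place of 24, the replicate block gave 22, and leaving out 1 library gave 10 to 24 (10 without control 1 and also without injured 3, 11 without control 3, 14 without control 2); each of these fits has fewer libraries. The number of rare loci was 56 with a limit of 5 RPM and 76 with 20 RPM.

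With at least 3 reads required, injured libraries had 15.7 more rare loci than controls, and 2.43 more at equal depth; with at least 1 read the difference as sequenced was 7.50 to 10.5 without 1 library. Some log2 fold changes changed sign. Of those near 0, mir124-6 was 0.0015 with library totals and −0.21 to 0.069 without 1 library, and MIR9-2 was −0.31 to 0.12 without 1 library. That of mir459, 0.47 in the report, was −0.54 with limma-voom and −1.97 to 1.06 without 1 library; the lowest value is that without injured 3, which holds 104 of its 142 reads, and comes from a fit without the filter, chosen once the data were known. The cause of the other changes was not tested. The Pearson index of spread, added after the data had been seen, had a median of 1.27, and that of mir459 was 46.7. Depth limits the control libraries most, where 34 rare loci averaged less than the 1.21 RPM that 3 reads are worth in the shallowest.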
